A study of Mus musculus with 8 samples.

Results

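Genes of blood, vessels and embryonic haemoglobin were followed in cultures in which Zrf1 had been knocked down during neural induction: the transcription factors Runx1 and Tal1, the vascular receptors Flt1, Kdr and Tek, the surface proteins Pecam1 and Cd34, and the embryonic globins Hbb-bh1, Hbb-y and Hba-x. The 10 members were taken by name, as every array probe that is not a control and whose gene name in the scanner files is 1 of these 10, which gave 15 probes on 25 spots of the 55681 probes and 59305 spots on each array, under 10 of 36406 gene names. The KD group was 4 arrays of mouse cells labelled RGC-like NPC that carried a short hairpin RNA against Zrf1 (shZrf1), and the Control group was 4 arrays of the same kind of cells with a control hairpin (shCtrl). Both groups were made from embryonic stem cells (ESC) and taken at day 6 of neural induction; the stem cell line, its clone and the hairpin sequences were not used here. From each sample 100 ng of total RNA was amplified from an oligo-dT primer and labelled with Cy3, so each array holds 1 sample in 1 colour, and its signal comes mainly from polyadenylated RNA. Nothing in the labels says that the 4 samples of a group came from separate cultures, so p-values measure the spread between these samples, which may be technical. The names of the deposited arrays give the 4 KD arrays only 2 different numbers, with KD 1 and KD 2 sharing one and KD 3 and KD 4 sharing the other, and KD 2 and KD 4 also carry the letters TR, which no label explains.

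Blood and endothelium arise close together in the embryo, from mesoderm that expresses the VEGF receptor Kdr. Tal1 and Runx1 are DNA-binding factors needed to form blood, Runx1 for the emergence of definitive blood cells from endothelium, while the first red cells of the mouse yolk sac carry the embryonic globins made from Hbb-bh1, Hbb-y and Hba-x. None of these programmes is part of a neural progenitor, although single genes of the set are used outside blood and vessels, for example Flt1 in trophoblast and Runx1 in some neurons.

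Each value is the log2 signal of a probe after subtraction of its own array's 75th percentile, so 0 marks that percentile, and levels are compared between arrays and not between probes. A probe is called well above background on an array where the scanner software flagged it so, and it was tested where every array of KD, of Control or of both carried that flag. Changes are KD minus Control from limma with its standard error (SE), and a probe was called where its p, adjusted over all 29090 tested probes by the Benjamini-Hochberg method, was under 0.05. Between 53.4% and 60.3% of the spots of an array were well above background and 0 were saturated. The hairpin's target, named Dnajc2 on the array and measured by 1 probe, lay between -2.53 and -2.08 on KD arrays and between 1.75 and 2.02 on Control arrays, a change of -4.19 (SE 0.12, adjusted p = 1.38e-07 by limma), or 18.3-fold lower. Of 12 markers of neural progenitors, 11 were well above background on all Control arrays and 10 on all KD arrays, and their summed level, in multiples of the 75th percentile, was 39.0 to 41.3 on KD arrays and 132 to 146 on Control arrays. The markers of the labelled cell type were thus read in both groups, at unequal levels.

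The set did not move as a group. Of the 15 probes, 10 probes for 8 genes were tested, and 3 of them were called higher (Runx1, Flt1 and Cd34, 1 probe each), 5 were called lower (both Hbb-y probes, Hbb-bh1, 1 Kdr probe and Pecam1) and 2 were not called (Tal1 and the other Kdr probe). Most tested probes were called in this comparison, so these counts have to be read against a high background: 57.1% of all tested probes were called, 29.0% higher and 28.1% lower (57.6% of genes, taken with 1 probe each), and in 54.1% the KD and Control arrays did not overlap, as was so for 8 of the 10 tested here. The 2 Hbb-y probes were tested through their Control signal alone and the Runx1 probe through its KD signal alone, since 1 Control array lacked the flag, which selects for a difference, and the counts are no support for the set. The median change of the 10 tested probes was -0.39, against 0.05 over all tested probes. Among members well above background on all 8 arrays, 3.87% of all tested probes had a larger rise than Flt1 and 0.918% a larger fall than Hbb-bh1. Some markers of other cell types moved in the same comparison. All 5 markers of primitive endoderm were higher (summed level 4.68 to 5.43 on KD arrays and 1.03 to 1.20 on Control arrays). Of these, Afp and Gata4 were tested through KD alone, with 0 and 3 Control arrays well above background, which selects for a rise. Sox17 was called higher by 1 of its 2 tested probes. Of 5 blood markers, Gata1 and Itga2b were higher, Klf1 was not called (-0.09, adjusted p = 0.745 by limma), and Ptprc and Spi1 were not tested. The sum of the 5 blood markers was 0.979 to 1.12 on KD arrays and 0.441 to 0.576 on Control arrays. The part of these marker changes in the results below was not tested. In whole cultures such as these, fewer cells of a type and less RNA per cell cannot be told apart.

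**Figure D1:**
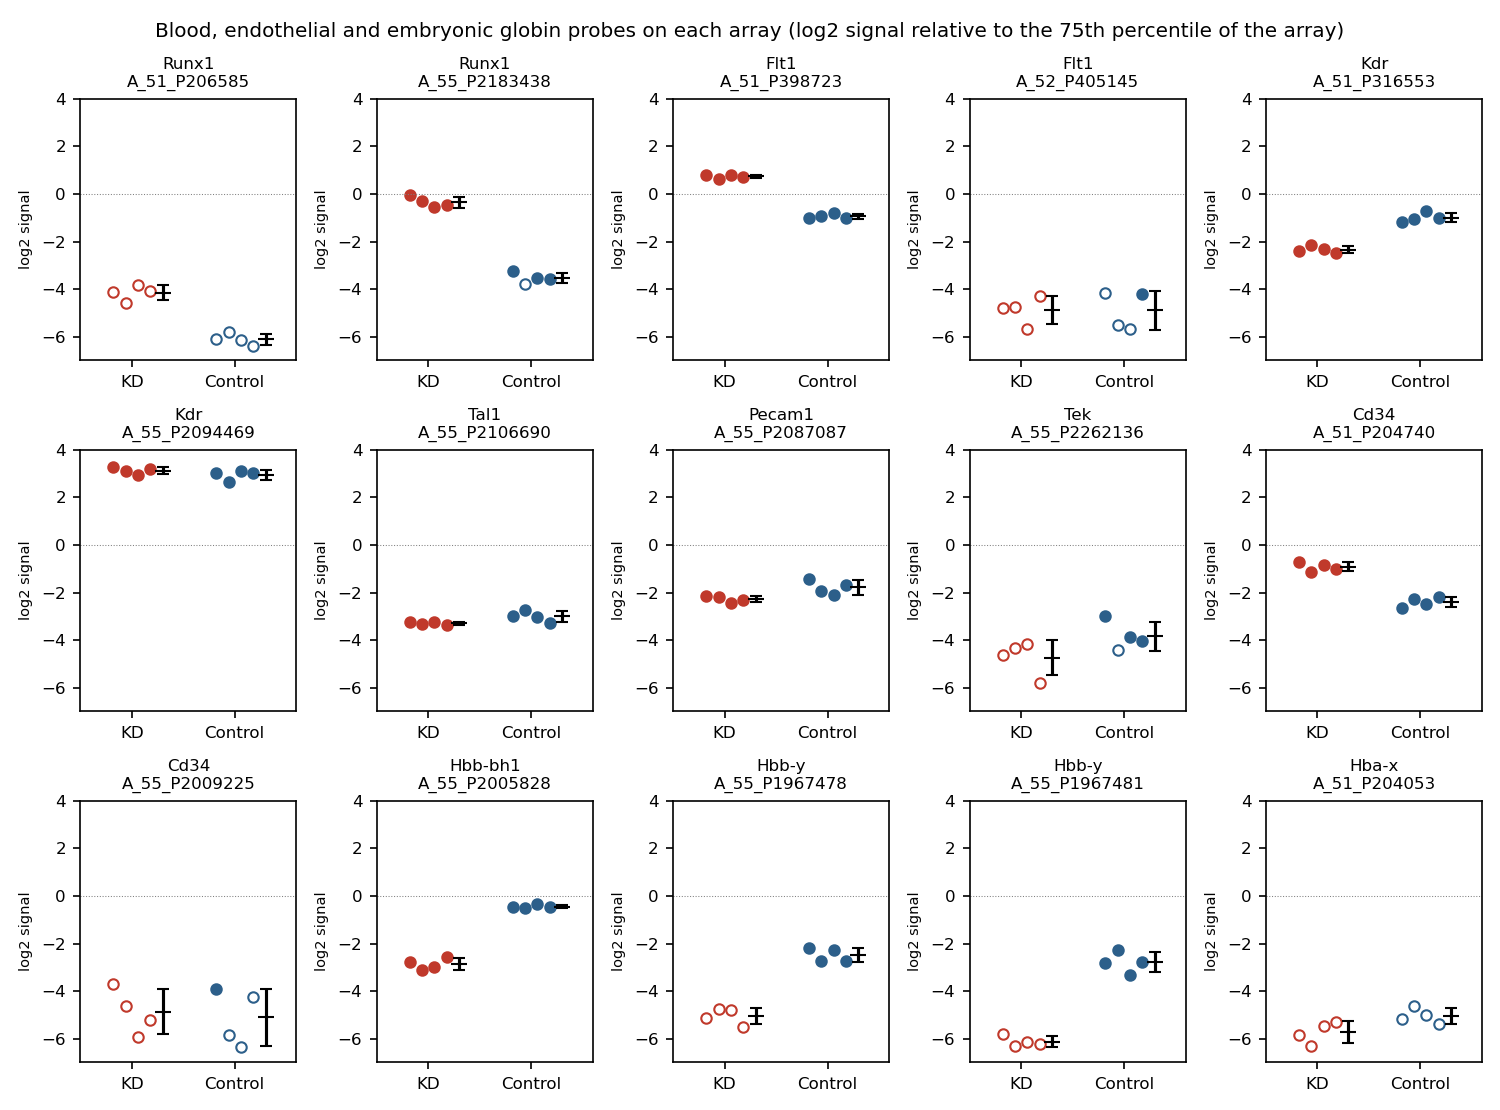
Log2 signal of all 15 probes on each array, relative to the 75th percentile of the array, with KD left and Control right in each panel; filled points are well above background, open points are not, and the black mark with its bar is the mean and SD of 4 arrays. Runx1, Flt1 and Cd34 each have 1 probe that is higher on all 4 KD arrays, Hbb-bh1 and both Hbb-y probes are lower on all 4 KD arrays, and the other probe of Runx1 and the Hba-x probe are open on all 8 arrays.

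Several members rest on a choice between probes, so the stretches that tell these probes apart are shown first. Each line gives bases 1 to 30 of a 60-base probe, 5′ to 3′, in the sense of the transcript; positions on mouse build mm9 were taken from the scanner files.
Runx1 A_55_P2183438: caggagggcccttggaggccaccaggaaga
Flt1 A_51_P398723: aagtaaagaaaagctatcgggattctctgg
Flt1 A_52_P405145: tccctatcccaactacacattcaatcttct
Kdr A_51_P316553: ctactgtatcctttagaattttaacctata
Kdr A_55_P2094469: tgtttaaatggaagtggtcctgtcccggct
Hbb-bh1 A_55_P2005828: taaactccattccagtacactggcaatccc
The Runx1 probe is at chr16:92605785-92605844 on the minus strand. The Flt1 probes are at chr5:148373791-148373850 and chr5:148465976-148466035 on the minus strand, and their starts lie 92185 bases apart. The Kdr probes are at chr5:76329309-76329368 and chr5:76330395-76330454 on the minus strand, and their starts lie 1086 bases apart. Which exon or untranslated region each probe reads was not analysed here.

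Runx1, the DNA-binding partner of Cbfb in the core binding factor, had the largest rise of the set. Its probe A_55_P2183438, whose annotation in the files lists 4 RefSeq transcripts, had log2 signals of -0.04, -0.30, -0.56 and -0.48 on the 4 KD arrays, against -3.25, -3.79, -3.55 and -3.57 on the 4 Control arrays. It was well above background on all KD arrays and on 3 of 4 Control arrays, and every KD array lay far above every Control array. The means were -0.34 ± 0.23 in KD cells and -3.54 ± 0.22 in Control cells (SD, n = 4 each), a change of 3.20 (SE 0.15, 95% confidence interval 2.86 to 3.54, adjusted p = 9.25e-07 by limma), or 9.16-fold higher. As the probe was tested through the KD arrays alone and includes 1 Control signal that was not above background, the filter selects for such a rise, and the probe drops out where all 8 arrays must carry the flag. A further Runx1 probe, A_51_P206585, starts 1372 bases away at chr16:92604413-92604472 and carried no such flag on any of the 8 arrays. Its dim signals were -4.12, -4.59, -3.82 and -4.09 on KD arrays and -6.10, -5.80, -6.16 and -6.37 on Control arrays, so the groups did not overlap there either, but the probe was not tested and has no fold. Cbfb itself was 3.32 ± 0.04 in KD cells and 4.39 ± 0.06 in Control cells (SD, n = 4 each), a change of -1.07 (SE 0.06, adjusted p = 2.60e-06).

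Tal1, the basic helix-loop-helix factor at the head of the blood and vessel programme, stayed low in both groups. Its single probe, at chr4:114744219-114744278 on the plus strand, had log2 signals of -3.23, -3.34, -3.24 and -3.35 on KD arrays, against -2.98, -2.73, -3.02 and -3.29 on Control arrays. The KD array values lay close together, and the lowest Control array fell among them. The change of -0.28 (SE 0.12, 95% confidence interval -0.55 to -0.02) did not pass (adjusted p = 0.0657 by limma). Bases 31 to 60 of the probe, with runs of at least 5 A in capitals, show its A-rich end.
Tal1 A_55_P2106690: gactctttattgAAAAAcAAAAAcAAAAAA
With 41.7% A it belongs to the 5.39% of probes on the array with as much A or more; whether that affects its signal was not tested.

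Whether the 2 VEGF receptors changed in different directions depends on the Kdr probe. Flt1, which binds VEGF-A and PlGF tightly and also exists as a soluble decoy, was higher in KD cells by its 1 tested probe. Kdr, the main signalling receptor for VEGF-A, was lower by 1 probe and not called by the other. Probe A_51_P398723 of Flt1 had log2 signals of 0.79, 0.64, 0.80 and 0.72 on KD arrays and -1.02, -0.90, -0.82 and -1.03 on Control arrays. The spread within each group was a small part of the gap between the groups. The means were 0.74 ± 0.07 in KD cells and -0.94 ± 0.10 in Control cells (SD, n = 4 each), and the change was 1.68 (SE 0.08, 95% confidence interval 1.51 to 1.86, adjusted p = 8.11e-07 by limma), or 3.21-fold higher. The other Flt1 probe, A_52_P405145, was well above background on 0 of 4 KD arrays and 1 of 4 Control arrays; it was not tested, and its mean was -4.88 ± 0.59 on KD arrays and -4.89 ± 0.81 on Control arrays.

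Kdr probe A_51_P316553 was printed on 10 spots, and it gave -2.42, -2.13, -2.30 and -2.50 on KD arrays, against -1.18, -1.06, -0.73 and -1.02 on Control arrays. All 4 KD arrays lay below all 4 Control arrays. The means were -2.34 ± 0.16 in KD cells and -1.0 ± 0.19 in Control cells (SD, n = 4 each), a change of -1.34 (SE 0.12, 95% confidence interval -1.62 to -1.06, adjusted p = 2.83e-05 by limma), or 2.53-fold lower. The spots of this probe on 1 array had SDs between 0.08 and 0.37, and the 3 spots that the scanner software marked as outliers over all arrays were left out. Kdr probe A_55_P2094469 gave 3.27, 3.1, 2.94 and 3.18 on KD arrays and 3.04, 2.65, 3.1 and 3.01 on Control arrays. These values overlapped, and the change of 0.17 (SE 0.12, 95% confidence interval -0.10 to 0.45) was not called (adjusted p = 0.257 by limma). It was called higher on the authors' value table, at 0.29 (adjusted p = 0.0331 by limma).

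The Kdr probes disagreed by more than the spread of the arrays. The log2 ratio of the dimmer to the brighter Kdr probe was -5.46 ± 0.26 on KD arrays and -3.95 ± 0.22 on Control arrays, a difference of -1.51 between the groups. The log2 ratio of Flt1 A_51_P398723 to the dimmer Kdr probe was 3.08 ± 0.21 on KD arrays and 0.05 ± 0.12 on Control arrays, a difference of 3.02. The same ratio to the brighter Kdr probe was -2.38 ± 0.17 on KD arrays and -3.89 ± 0.23 on Control arrays, a difference of 1.51. Each of these 3 comparisons, chosen after the values were seen, had an exact two-sided permutation p of 0.0286, which is the smallest that 4 arrays against 4 can give, and 0.0286 after Benjamini-Hochberg adjustment over the 3. Since the comparisons were picked because the groups were seen not to overlap, these p-values describe the same arrays and add no evidence. Kdr itself was called lower by the dimmer probe and was not called by the brighter one.

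Tek, the receptor for the angiopoietins, could not be tested. Its probe at chr4:94540624-94540683 was well above background on 0 of 4 KD arrays and on 3 of 4 Control arrays. The log2 signals were -4.64, -4.32, -4.16 and -5.82 on KD arrays, against -3.00, -4.44, -3.85 and -4.04 on Control arrays. The groups overlapped through the dim Control 2 array.

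Pecam1, an adhesion molecule at endothelial junctions that is also present on platelets and on some stem cells, was slightly lower. Its probe at chr11:106540864-106540923 on the minus strand gave -2.16, -2.18, -2.43 and -2.31 on KD arrays and -1.42, -1.93, -2.11 and -1.66 on Control arrays. The groups did not overlap, though the highest KD array and the lowest Control array lay close. The means were -2.27 ± 0.12 in KD cells and -1.78 ± 0.30 in Control cells (SD, n = 4 each), a change of -0.49 (SE 0.15, adjusted p = 0.0233 by limma), or 1.40-fold lower. The call was lost without Control 4 (adjusted p = 0.0609), without KD 3 (0.0636), without KD 4 (0.0542), without KD 2 and KD 4 together (0.0979) and where the KD arrays that share a number were averaged (0.0980).

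Cd34, a sialomucin of blood progenitors and small vessels, rose. Its probe A_51_P204740 at chr1:196787392-196787451 on the plus strand gave -0.70, -1.15, -0.83 and -0.99 on KD arrays, against -2.64, -2.26, -2.50 and -2.19 on Control arrays. No KD array came near the Control arrays. The means were -0.92 ± 0.20 in KD cells and -2.40 ± 0.21 in Control cells (SD, n = 4 each), a change of 1.48 (SE 0.14, 95% confidence interval 1.17 to 1.79, adjusted p = 3.17e-05 by limma), or 2.79-fold higher. Probe A_55_P2009225 at chr1:196785280-196785339 was well above background on 0 KD arrays and 1 Control array and was not tested. Cd34 and the lower-placed Hbb-y probe are the 2 member probes that hold the polyadenylation signal AATAAA, which 10.1% of all probes hold; bases 23 to 52 of each are shown with that signal in capitals, since such a signal stands near the end of most transcripts, where oligo-dT priming starts.
Cd34 A_51_P204740: tattctcttctgAATAAAcgtgatgagtga
Hbb-y A_55_P1967478: cacatcatgtttAATAAAgatcatccttcc

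The embryonic globins of the beta cluster on chromosome 7 were both lower in KD cells. Hbb-bh1, which encodes the beta-H1 chain of primitive red cells, gave -2.78, -3.11, -2.99 and -2.57 on KD arrays and -0.47, -0.51, -0.33 and -0.47 on Control arrays, from a probe at chr7:110990209-110990268 on the minus strand. It passed the background flag on all 8 arrays, and the Control arrays were nearly identical. The means were -2.86 ± 0.24 in KD cells and -0.44 ± 0.08 in Control cells (SD, n = 4 each), a change of -2.42 (SE 0.12, 95% confidence interval -2.70 to -2.14, adjusted p = 1.34e-06 by limma), or 5.35-fold lower.

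Hbb-y, which encodes the epsilon-y chain, was measured by 2 probes that start 180 bases apart, both well above background on all 4 Control arrays and on none of the 4 KD arrays. Probe A_55_P1967478, at chr7:111000268-111000327, gave -5.12, -4.77, -4.81 and -5.49 on KD arrays, against -2.18, -2.73, -2.29 and -2.73 on Control arrays. Probe A_55_P1967481, at chr7:111000448-111000507, gave -5.82, -6.32, -6.12 and -6.23 on KD arrays, against -2.80, -2.29, -3.31 and -2.76 on Control arrays. The KD signals are those of a dim spot, so they only bound the change: Hbb-y was at least 2.79-fold lower by A_55_P1967478 and at least 2.26-fold lower by A_55_P1967481. For these bounds, a KD array's signal was raised to the lowest one flagged well above background on that array wherever the probe lay under it. With the dim signals taken as they are, the adjusted p by limma was 1.26e-05 for A_55_P1967478 and 4.05e-06 for A_55_P1967481, which are no p-values of the bounds.

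Hba-x, the embryonic zeta chain of the alpha cluster on chromosome 11, was not well above background on any of the 8 arrays. Its probe at chr11:32177668-32177727 averaged -5.73 ± 0.46 on KD arrays and -5.05 ± 0.32 on Control arrays, was not tested and has no fold. The whole probes of the higher-placed Hbb-y position and of Hba-x are shown because one was read in Control cells and the other in none.
Hbb-y A_55_P1967481: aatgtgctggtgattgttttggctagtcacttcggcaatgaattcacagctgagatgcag
Hba-x A_51_P204053: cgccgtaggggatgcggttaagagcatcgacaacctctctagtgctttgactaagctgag
Over 29 pairs of an embryonic globin probe with the probe of another globin, the longest run of bases shared was 8; whether a probe also matches another globin's transcript was not tested.

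Of the other globins, named here after their values were seen, 3 were tested and each was higher. The adult alpha globin probes were both among them, Hba-a2 at -0.41 ± 0.04 in KD cells and -1.27 ± 0.13 in Control cells (change 0.87, adjusted p = 3.49e-05 by limma) and Hba-a1 at -2.19 ± 0.24 in KD cells and -2.76 ± 0.03 in Control cells (change 0.57, adjusted p = 0.00315). Hbq1a, a theta globin, was higher by 1.18 (adjusted p = 0.000462). The adult beta globin probes Hbb-b1 and Hbb-b2 were dim on all 8 arrays and Hbq1b on all but 1 Control array, so these were not tested. The alpha globin genes have near-identical copies, so the Hba-a1 and Hba-a2 signals may be shared between them.

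**Figure D2:**
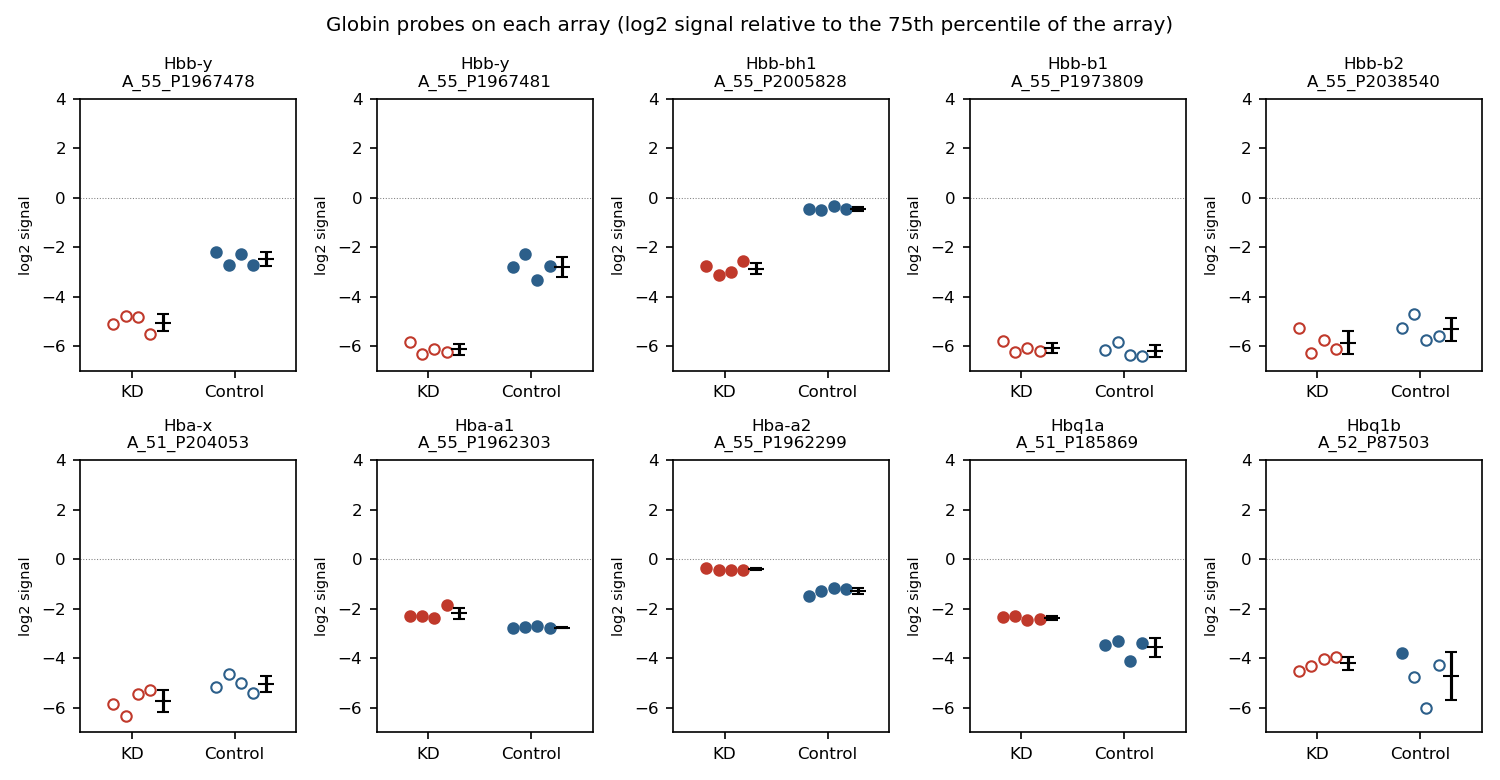
Log2 signal of every named globin probe on each array, relative to the 75th percentile of the array, with KD left and Control right; filled points are well above background, and the black mark with its bar is the mean and SD of 4 arrays. Hbb-bh1 and the 2 Hbb-y probes are lower on KD arrays, Hba-a1, Hba-a2 and Hbq1a are higher, and Hbb-b1, Hbb-b2 and Hba-x are open points throughout.

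The arrays lay on 3 slides, each with both groups, and the changes were taken within each slide. Slides 1 and 3 held 1 KD and 1 Control array each, and slide 2 held 2 of each. Runx1 was higher by 3.75, 3.13 and 2.78 on slides 1, 2 and 3, Flt1 by 1.70, 1.64 and 1.74, and Cd34 by 1.57, 1.35 and 1.65. The dimmer Kdr probe changed by -1.36, -1.34 and -1.32, and Hbb-bh1 by -2.27, -2.65 and -2.11. For Hbb-y the differences were -2.39, -2.28 and -3.31 by A_55_P1967478 and -3.53, -3.19 and -3.43 by A_55_P1967481. They use its dim KD signals, which only bound the change. The direction of these members was the same on every slide. That had to be so, since their KD and Control arrays did not overlap, and it adds no evidence. Pecam1 changed by -0.23, -0.42 and -0.89 and Tal1 by -0.50, -0.14 and -0.37, while the brighter Kdr probe changed by 0.62, -0.04 and 0.15 and so had no common sign. Of the 8 called probes, 7 were called in the same direction in every alternative that tested them, and Pecam1 was the exception. The sizes were smaller on the authors' value table, where background correction and normalization both differ: Runx1 changed by 2.05, Hbb-bh1 by -1.81, Cd34 by 0.94 and the Hbb-y probes by -1.04 and -1.27. With arrays scaled to their medians, the median change of all probes was -0.12, and Runx1 (3.02), Flt1 (1.51), Cd34 (1.31) and Hbb-bh1 (-2.59) kept their signs.

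**Figure D3:**
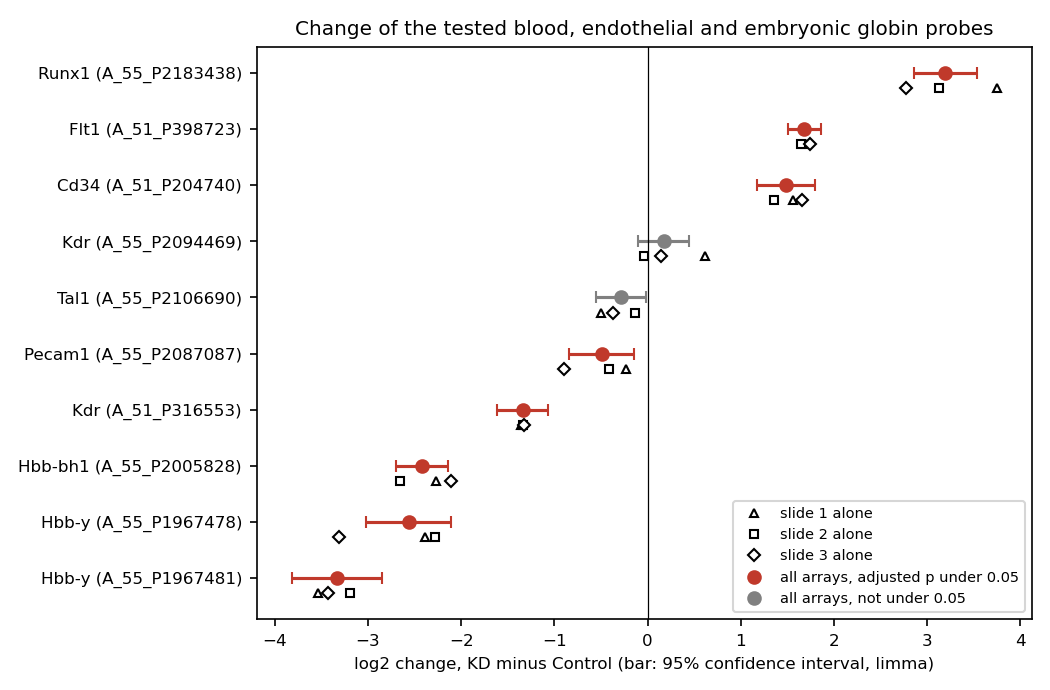
Log2 change, KD minus Control, of the 10 tested probes, with the 95% confidence interval of limma as a bar and the change within slides 1, 2 and 3 as open symbols below it; grey points were not called. Runx1 lies farthest to the right at 3.20 and Hbb-y A_55_P1967481 farthest to the left at -3.33, where the KD signal was dim, and the slide values of Kdr A_55_P2094469 fall on both sides of 0.

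Genes around the members were grouped in 9 lists of 196 genes, none of them a member, of which 137 were tested, with 1 probe per gene; 63 were higher and 43 lower. Of the 196 genes, 9 stand in more than 1 list. Over all 21749 tested genes, 29.1% were called higher and 28.5% lower, with a median change of 0.04. List genes given below with a bound ("at least") were tested through 1 group alone, which selects for a difference, as were Gata4, Pdgfra, Foxc2 and Cubn through KD and Cdx2 through Control, so the counts of the lists describe these arrays and support nothing further. The p printed with a bound belongs to the fit on the dim signals and not to the bound. Ligands and co-receptors of the VEGF and Tie receptors were mixed: 3 of 8 tested genes were higher and 4 lower (median -0.26). Angpt1, the activating ligand of Tek, was at least 2.20-fold lower (adjusted p = 3.00e-07 by limma), in the comparison in which Tek itself was dim on all KD arrays. Vegfc, a ligand for lymphatic growth, changed by -1.95 (adjusted p = 4.00e-07) and the co-receptor Nrp2 by -0.85 (adjusted p = 1.77e-05). Ptprb, the endothelial phosphatase that acts on Tek, was at least 3.17-fold higher (adjusted p = 2.88e-05). Of the ligands of Flt1, looked up after the values were seen, Pgf changed by 1.02 (adjusted p = 8.35e-05), Vegfb by -0.64 (adjusted p = 0.000364) and Vegfa by 0.12, which was not called (adjusted p = 0.320). The other tested Vegfa probe was called higher.

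Of 21 tested genes of endothelial identity, 11 were higher and 5 lower (median 0.52). Sox7 and Sox17 are among the 11 and also stand in the list of primitive, visceral and parietal endoderm given below. Sox7 was tested through KD alone, and Sox17 was called higher by 1 of its 2 tested probes. The factor Ets1 changed by 2.41 (adjusted p = 3.65e-07 by limma), the nitric oxide synthase Nos3 by 1.65 (4.91e-06), the fenestral protein Plvap by 1.35 (5.02e-06) and Mmrn2, an endothelial matrix protein, by -1.15 (5.44e-06). Of the 6 endothelial markers, Cdh5, Emcn and Tie1 were dim on all 8 arrays, and Tek was well above background on 3 Control arrays alone. Kdr and Pecam1 were well above background on all 8 arrays. The part of endothelial cells in the changes of Flt1 and Cd34 was not tested. The summed level of the 6 endothelial markers, which is mostly the brighter Kdr probe, was 7.95 to 9.98 on KD arrays and 6.64 to 8.93 on Control arrays.

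Of 17 tested transcription factors of blood, 4 were higher and 8 lower (median -0.24). Gata1, the erythroid and megakaryocytic factor, changed by 2.30 (adjusted p = 1.36e-06 by limma), Meis1 by -0.90 (7.77e-06) and Lmo2, which bridges Tal1 and Gata factors, by -0.84 (9.48e-06). Of 23 tested erythroid genes, 9 were higher and 7 lower (median 0.15), among them the haem enzymes Cpox, by 1.24 (9.68e-06), and Fech, by 0.93 (3.07e-06), the transferrin receptor Tfrc, by -1.61 (8.98e-06), and Klf2, a factor that acts on embryonic globin genes, by -1.48 (4.29e-06). Of 11 tested genes of blood cell surfaces and leukocytes, 6 were higher and 1, the receptor Kit, was lower, by 0.98 on the log2 scale (1.28e-05), with a list median of 0.71. Cd68 of macrophage lysosomes was at least 2.82-fold higher (3.73e-05), Laptm5 was higher by 1.16 (0.000108) and Coro1a by 1.15 (0.000125). Ptprc, the surface protein of nearly all white blood cells, was well above background on 3 arrays of each group, and the myeloid factor Spi1 on none.

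Of neighbouring lineages, 9 of 10 tested genes of mesoderm and haemangioblast precursors were higher and 0 lower (median 1.66), and 23 of 25 genes of primitive, visceral and parietal endoderm were higher and 1 lower (median 1.47). In the mesoderm list, 8 of 18 genes were not tested: T, Mixl1, Mesp1, Msgn1, Hand1, Hand2, Foxf1 and Isl1. Foxc1 and Tbx1, called higher there, were tested through KD alone. Gata4 and Pdgfra stand in both lists, and changed by 2.85 (adjusted p = 1.24e-07 by limma) and 2.49 (adjusted p = 1.84e-07), with 3 and 1 of the 4 Control arrays well above background. Foxc2 changed by 3.04, with 2 Control arrays above background, and Snai1 by 1.97 in the mesoderm list, and Cubn changed by 5.37, with 3 Control arrays above background, and Afp was at least 9.24-fold higher in the endoderm list. Of 12 trophoblast genes, a lineage that uses Flt1, 3 were higher and 3 lower (median 0.17), with Esx1 at 1.95, Ascl2 at 1.50, Tfap2c at -0.89 and Cdx2 at -4.03. Of 17 tested neural progenitor genes, 0 were higher and 15 lower (median -1.94), with Ptn at -3.18, Zic1 at -3.48, Hes5 at -4.02 and Olig3 at -4.22. Pax6 was counted by its brighter probe, which was not called (-0.24, adjusted p = 0.101 by limma). The other tested Pax6 probe was called higher.

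**Figure D4:**
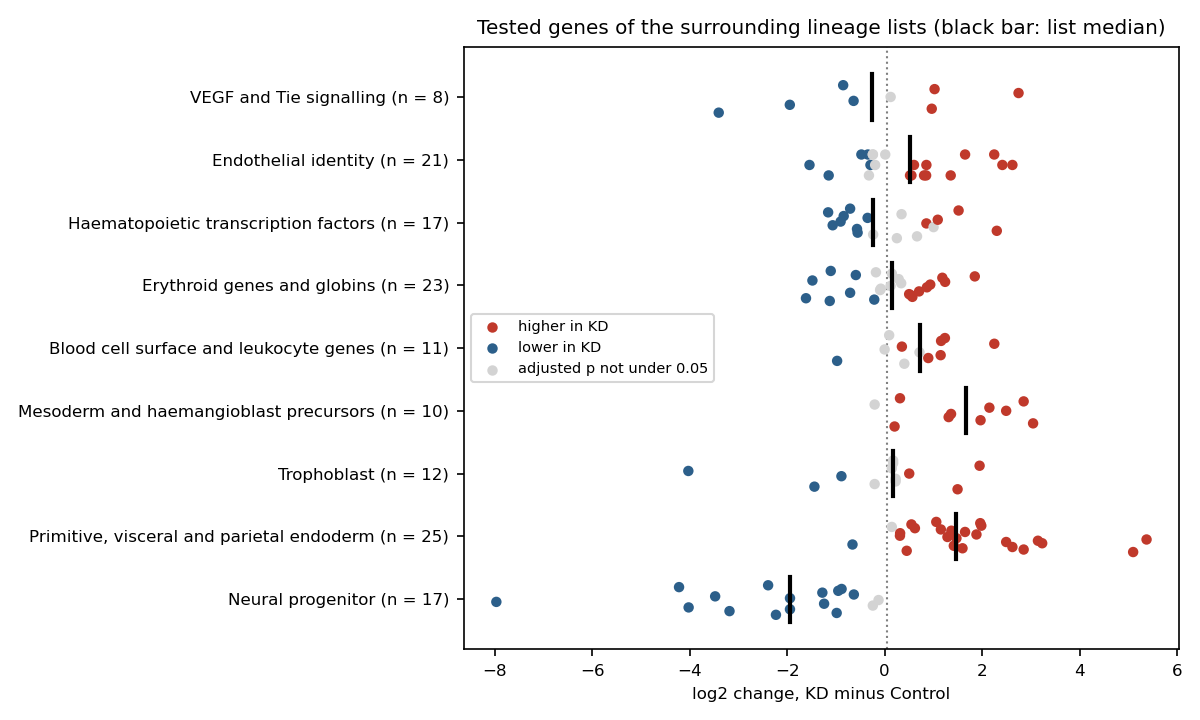
Log2 change, KD minus Control, of each tested gene of the 9 lists, 1 point per gene, coloured by its call; the black bars are list medians and the dotted line is the median of all tested genes, 0.04. The lists of blood and vessel genes spread to both sides, the mesoderm and endoderm lists lie mostly to the right and the neural progenitor list to the left.

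The genes whose pattern over the 8 arrays was most like that of the strongest members were looked up among 21748 tested genes, by the root mean square difference of log2 signals centred on their mean. For Runx1 these were Itga11, a collagen receptor (difference 0.0952), Myh7, a heart and slow muscle myosin (0.115), and Syce3, a protein of the meiotic synaptonemal complex (0.142). For Hbb-y A_55_P1967481 they were Neto2 (0.181), Nedd9 (0.183) and Arg1 (0.258), and Neto2 too was dim on all KD arrays. With 2 groups of 4 arrays, such likeness is mostly a like change between the groups.

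Promoters are shown for 2 members that changed in opposite directions, Hbb-y down and Flt1 up. Runx1, which rose more than Flt1, is given by its motifs alone. RefSeq promoters on build GRCm38.p6, 250 bases before the start of each gene, were at hand for 8 of the 10 genes, with 10 starts. In the Hbb-y promoter, chr7:103853208-103853457 on the minus strand, capitals mark the motifs searched that were found: TTATCA, which is TGATAA on the other strand and a core letter pattern of GATA factors, CACCC, bound by Klf factors, and CCAAT. In the Flt1 promoter, chr5:147726012-147726261 on the minus strand, they mark GGGTG, which is CACCC on the other strand, GGAAGT, a pattern of Ets factors, and TATAAA.
Hbb-y promoter: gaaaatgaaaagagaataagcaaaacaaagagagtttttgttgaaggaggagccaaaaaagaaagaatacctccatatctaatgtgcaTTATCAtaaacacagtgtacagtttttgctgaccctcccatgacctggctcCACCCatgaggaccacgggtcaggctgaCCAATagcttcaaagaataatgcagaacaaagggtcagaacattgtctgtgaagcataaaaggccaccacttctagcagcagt
Flt1 promoter: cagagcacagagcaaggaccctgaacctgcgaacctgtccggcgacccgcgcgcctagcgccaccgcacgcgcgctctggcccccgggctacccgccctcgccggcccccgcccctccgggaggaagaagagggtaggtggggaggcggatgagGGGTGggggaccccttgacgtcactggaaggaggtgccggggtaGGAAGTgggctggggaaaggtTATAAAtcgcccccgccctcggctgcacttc
Over both strands, CACCC was in 7 of the 10 member promoters and in 52.0% of 32851 promoters of the table, CCAAT in 3 and in 33.8%, AGATAA or TGATAA in 3 and in 16.6%, TATAAA in 2 and in 12.4%, GGAAGT in 2 and in 19.7%, and CATCTG, a pattern of basic helix-loop-helix factors such as Tal1, in 1 and in 14.4%. None of these motifs contains another. Both Runx1 promoters held CCAAT, the one at chr16:92697330-92697579 also held CACCC, and neither held any of the other motifs. A match of letters is a description and not a bound site.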

How the data were processed

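Deposited scanner files of 8 single-colour Agilent arrays of design 028005 were used, 4 KD and 4 Control. The intensity of each spot was extracted by the authors with Agilent Feature Extraction 10.7.3.1 and corrected within each array for background, per the file headers; no scaling between arrays is recorded there. The authors also deposited a table of log2 values, whose making is not given in the sources used here, and which served as an alternative; its columns follow a normexp correction (offset 50) with quantile normalization computed here.

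Outlier spots were removed, spots of a probe averaged, log2 taken and each array's 75th percentile subtracted. Current symbols came from RefSeq for 26300 probes (accession), 2044 (symbol) and 355 (synonym); the other 26982 stayed as named. Of 55681 probes, 29090 were tested in limma 3.58.1 (lmFit and eBayes, two-sided, no covariates, all 8 arrays) under R 4.3.3. Each list gene was represented by its tested probe with the highest mean. The fit was tested on simulated data with 29071 probes for KD against Control: of changes of 2 and 1 on the log2 scale, 88% and 74% were recovered upward, and 98% and 68% downward, with 9 false calls. Each change was given to 50 probes, whereas 57.1% of tested probes were called in the data, so these rates need not hold there. The number of arrays limits the precision.

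The members and gene lists were chosen with earlier results of these data known. Every member probe was named, and of each list up to 4 called genes with the smallest p; genes said to be looked up after their values were seen are exceptions. Alternatives were 20, covering scaling, background correction, filters, slide and replicate blocks, averaged KD arrays and arrays left out.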

Additional observations from a re-analysis of the deposited data

How the results depend on the processing

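No result changed direction under the 20 alternatives run. The count of member probes called lower, 5, was 3 both where only probes well above background on all 8 arrays were tested, which leaves 7 member probes and drops Hbb-y and Runx1, and where 1 probe stood for each gene, which leaves 8. Leaving out arrays, member probes called higher stayed at 3, those called lower ranged from 4 to 5, list genes called higher from 59 to 67 and lower from 41 to 44. Over the 10 tested member probes and all alternatives, 185 values kept their call, 6 lost it, all of them Pecam1 (also with no filter on dim probes, adjusted p = 0.0625), and 4 gained one: the brighter Kdr probe with normexp (0.29, adjusted p = 0.0327) and on the authors' values, and Tal1 with median scaling (-0.46, adjusted p = 0.0239) and without Control 4 (-0.38, adjusted p = 0.0120). The cause was not tested. Median scaling also moved the share of all calls that were higher to 37.7%, against 50.8%. In the lists, mesoderm genes called higher were 4 with probes well above background on all 8 arrays, 1 was called lower without Control 2, and trophoblast genes called higher were 5 with normexp and on the authors' values. With the replicate number as a block, 3 member probes were higher and 5 lower, as without it, and 62 list genes were higher and 41 lower. The correlations of KD and Control arrays with the same replicate number were 0.11, -0.12, 0.11 and -0.19. KD and Control arrays with different replicate numbers were not compared in this way, so these values cannot show whether the groups are paired. The log2 difference between KD 1 and KD 2 had an SD over probes of 0.380 and that between KD 3 and KD 4 of 0.405, against 0.320 for KD 2 and KD 3, which share a slide but no number, and 0.408 to 0.420 for the other 3 KD pairs. Signals under background limit Tek, Hba-x, both Hbb-y probes and 1 probe each of Runx1, Flt1 and Cd34.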
